A study of Mus musculus with 8 samples.

Results

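The genes described here are the mouse amino acid transporter genes of the solute carrier families Slc1, Slc3, Slc6, Slc7, Slc36, Slc38 and Slc43. They were chosen by symbol from the platform annotation. Of 22180 genes with a single symbol, 64 matched, and where a gene had several probe sets, as 4 of them did, the brightest on average was used. Of the 64, 61 carry a transporter symbol, and 3 (Slc36a1os, Slc6a19os and Slc7a6os) are opposite-strand neighbours that match the pattern only by name. The topic was picked because Slc7a8 and Slc36a2 differed in opposite directions between the ages, so the values and limma calls that compare P21 with P4 are given as a description from which nothing is read, and the genotype comparison is the one that this choice did not use.

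RNA was measured on 8 gene arrays, each from cells sorted out of whole dissociated skin as positive for green fluorescent protein and negative for the surface receptor p75. P21_KO holds 4 arrays of cells called melanocyte stem cells, from mice aged 21 days that are B-raf fl/fl and likewise floxed (fl/fl) at another gene. P21_WT holds 2 arrays of the same cell type and age from mice that are +/+ for B-raf and for that other gene, and P4_WT holds 2 arrays of cells called melanoblasts, the precursors of pigment cells, from pups aged 4 days that are +/+ for both. All groups, controls included, carry the TyrCre transgene, in which the tyrosinase promoter drives Cre recombinase, and the Z/EG reporter, on a mixed C57Bl/6 and 129/Sv background. The floxed alleles can therefore be lost only where Cre was active. The wild-type arrays of each age came from different animals, per the design text, but 3 of the 4 P21_KO arrays carry the same number in their descriptions, with no word on what it stands for. Should those not be independent animals, the spread behind the p-values is partly technical and the p-values come out too low. Values are on the log2 scale of the deposited table, so 1 unit is a doubling.

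Amino acid carriers move nutrients, and in neural tissue also transmitters, across the cell surface and the membranes of organelles. The light chains of the Slc7 family reach the cell surface only when joined by a disulfide bond to a heavy chain of the Slc3 family. In pigment cells these carriers matter for colour as well as growth. Tyrosine is the substrate of tyrosinase for melanin, and cystine, imported by the Slc7a11 exchanger, supplies the cysteine of the red-yellow pheomelanin. Not every member carries amino acids, since Slc6a8 moves creatine, Slc6a3 and Slc6a4 move dopamine and serotonin, and Slc43a3 moves purine bases.

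Promoters of 4 members are shown, those of Slc7a8, Slc7a11 and Slc1a4, which differed between the ages, and that of Slc36a1, a neighbour of Slc36a2 that differed little. Slc36a2, Slc7a5 and Slc38a1 had no promoter entry. Slc36a4, Slc38a4 and Slc6a17, which limma also called in P21_KO against P4_WT, had entries that are not shown. The promoters cover 250 bases before to 50 bases after the start site on GRCm38.p6, are taken from RefSeq, and run 5′ to 3′ on the gene's strand. Slc7a8 lies at chr14:54781837-54782136 (minus strand), Slc7a11 at chr3:50443564-50443863 (minus strand), Slc1a4 at chr11:20332664-20332963 (minus strand) and Slc36a1 at chr11:55204090-55204389 (plus strand). Capitals mark the E-boxes CATGTG (or CACATG) and CACGTG, which are of the kind bound by MITF and TFE factors, and the amino acid response element TGATGNAAN, of the kind bound by ATF4, searched on both strands.
Slc7a8: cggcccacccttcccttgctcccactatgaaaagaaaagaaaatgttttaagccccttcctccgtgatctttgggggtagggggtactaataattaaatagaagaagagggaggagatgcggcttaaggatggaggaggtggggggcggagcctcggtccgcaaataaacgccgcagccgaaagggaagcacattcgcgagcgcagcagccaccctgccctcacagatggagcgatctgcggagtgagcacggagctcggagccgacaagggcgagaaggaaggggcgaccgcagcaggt
Slc7a11: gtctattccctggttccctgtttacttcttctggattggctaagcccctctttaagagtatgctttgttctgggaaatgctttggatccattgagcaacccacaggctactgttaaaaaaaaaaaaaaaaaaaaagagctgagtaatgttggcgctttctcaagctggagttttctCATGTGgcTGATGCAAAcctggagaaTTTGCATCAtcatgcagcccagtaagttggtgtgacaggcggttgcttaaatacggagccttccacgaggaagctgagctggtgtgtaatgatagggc
Slc1a4: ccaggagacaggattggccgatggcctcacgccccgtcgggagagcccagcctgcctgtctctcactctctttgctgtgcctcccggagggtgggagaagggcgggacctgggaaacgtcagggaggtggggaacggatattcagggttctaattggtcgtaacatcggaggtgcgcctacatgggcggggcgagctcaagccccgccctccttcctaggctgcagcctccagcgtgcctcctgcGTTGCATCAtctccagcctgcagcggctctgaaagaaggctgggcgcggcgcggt
Slc36a1: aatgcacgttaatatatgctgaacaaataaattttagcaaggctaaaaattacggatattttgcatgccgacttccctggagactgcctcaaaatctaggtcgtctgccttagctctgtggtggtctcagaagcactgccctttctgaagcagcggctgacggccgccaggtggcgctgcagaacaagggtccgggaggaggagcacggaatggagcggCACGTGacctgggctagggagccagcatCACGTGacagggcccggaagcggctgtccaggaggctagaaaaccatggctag

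The Slc7a11 promoter holds 2 response elements facing each other and 1 CATGTG, with no overlap among them. Slc1a4 holds 1 response element and Slc36a1 holds 2 CACGTG boxes, while none of these letters stands in the window of Slc7a8. Among the called members not shown, Slc36a4 and Slc38a4 held none of them, and Slc6a17 held 1 CATGTG at 1 of its start sites. Of the 64 members, 47 had a promoter entry, with 66 start sites in all. The response element was in 7.58% of these 66 and in 3.95% of all 32851 promoters of the table, CACGTG in 13.6% and 7.15%, and CATGTG in 12.1% and 14.2%. The 7.58% stands for 5 start sites, among them overlapping windows of Slc7a7 that hold the same element and were counted separately. A match is a description of the sequence and not a bound site.

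In the sorted cells the melanocyte markers fixed for the check were all measured, and all 10 read above the median of all gene values (3.37) in each group. Their mean was 7.05 to 8.55 on the P21_KO arrays, 8.82 and 9.04 on the P21_WT arrays and 9.60 and 9.64 on the P4_WT arrays, so it did not overlap between the groups. Against P4_WT, 8 of the 10 were lower in value in P21_WT with 0 called, and 9 in P21_KO with 5 called lower and 1 higher. The markers did not all fall. Sox10 was higher by 0.73 in P21_WT and by 0.81, called, in P21_KO, and Pax3 was higher by 0.23 in P21_WT. Of 9 measured Schwann cell markers 7 were called higher in P21_WT than in P4_WT, and their mean was 8.26 to 8.54 in P21_KO, 8.21 and 8.27 in P21_WT and 6.62 and 6.95 in P4_WT. Markers of other skin cells set the P4_WT arrays apart from each other. The hair shaft mean was 5.81 and 4.15, the endothelial mean 3.41 and 5.34, and the macrophage, dendritic and T cell mean 3.16 and 5.57, each in order of replicate. On the P21 arrays these means were lower for hair shaft (2.87 to 2.95 in P21_KO, 2.79 and 2.86 in P21_WT), where 11 of 11 markers had lower values than in P4_WT and limma called 6 in P21_KO and 3 in P21_WT. The endothelial mean was 3.13 to 3.40 in P21_KO and 3.37 and 3.32 in P21_WT, with 10 of 10 markers lower in value and 1 and 0 called. P4_WT replicate 1, at 3.41, was close to these P21 values. The macrophage, dendritic and T cell mean was 3.17 to 3.54 in P21_KO and 3.40 and 3.62 in P21_WT. These lie above P4_WT replicate 1 (3.16) and below replicate 2 (5.57), with 9 of 10 markers lower in value in each P21 group and 0 called. Keratinocyte markers had a mean of 7.13 to 7.94 in P21_KO, 7.78 and 7.82 in P21_WT and 7.28 and 6.21 in P4_WT, with 10 of 11 higher in value in each P21 group and 1 and 0 called. The fibroblast mean was 6.12 to 6.65 in P21_KO, 6.78 and 6.35 in P21_WT and 6.79 and 7.20 in P4_WT. Of its 8 markers, 7 had a mean over all arrays above the median of all genes. Against P4_WT, 7 of the 8 were lower in value in each P21 group, with 2 called in P21_KO and 1 in P21_WT. The part of these cell types in the age differences of the members was not tested. In sorted bulk samples, fewer cells of a type and less RNA per cell cannot be told apart. Arrays of a group correlated at 0.954 to 0.974 across genes. Braf, a target of the knockout, read 6.57, 6.49, 6.30 and 5.66 in P21_KO, 5.99 and 7.20 in P21_WT and 5.80 and 6.00 in P4_WT. Those ranges overlap, and the place of its probes relative to the floxed part is not given in the sources used here, so the value checks the deletion little.

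Against this background, 34 of the 64 members read below 3.37 in the mean of each of the 3 groups. These include the glutamate carriers Slc1a1, Slc1a2, Slc1a3, Slc1a6 and Slc1a7, most of the transmitter carriers of the Slc6 family, the kidney light chain Slc7a9 and its heavy chain Slc3a1. Their differences between P21_WT and P4_WT lay between -0.43 and 0.44, and limma called 0 of the 34 in the 3 comparisons. At an unadjusted p under 0.05 there was 1, in P21_KO against P4_WT. A further 27 had a mean over all arrays above the median, and the remaining 3 (Slc6a7, Slc7a10 and Slc7a11) exceeded it in at least 1 group. Values near the floor of an array are compressed, so low readings give little information on change.

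**Figure D1:**
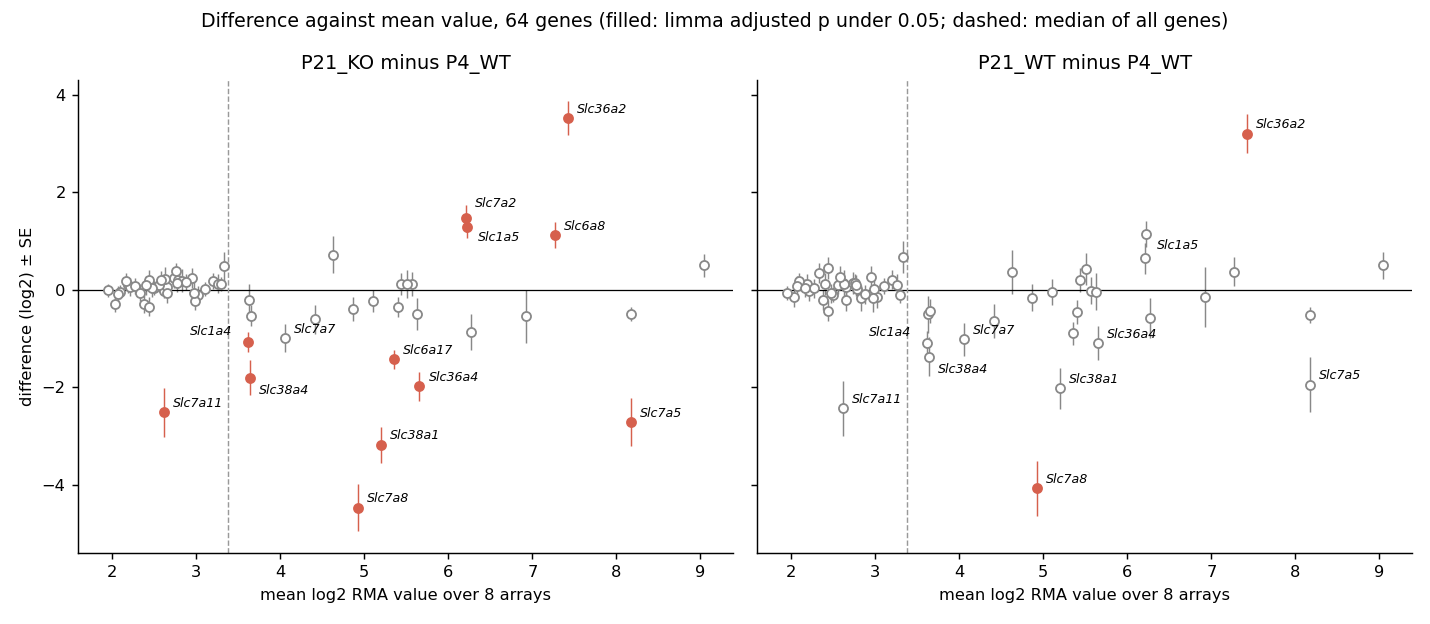
Difference in log2 value with its standard error (vertical) against the mean log2 value over 8 arrays (horizontal) for the 64 genes, for P21_KO minus P4_WT on the left and P21_WT minus P4_WT on the right. Filled points passed limma's adjusted p of 0.05 over all genes, 12 on the left and 2 on the right, and the dashed line is the median of all gene values.

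The members split by age in both directions, and the widest differences were those of Slc7a8 and Slc36a2, which the topic was chosen on. Slc7a8 encodes the light chain LAT2, an exchanger of neutral amino acids that also takes tyrosine. It read 4.13, 4.44, 3.68 and 2.56 in P21_KO, 4.22 and 3.98 in P21_WT, and 8.61 and 7.73 in P4_WT. The P21 arrays lay far below the P4 arrays without overlap, and P21_KO replicate 4 was the lowest. Slc7a8 was lower by 16.8-fold in P21_WT (log2 difference -4.07 ± 0.56 SE) and by 22.1-fold in P21_KO (-4.47 ± 0.49 SE), each against P4_WT.

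Slc36a2 encodes a carrier of small neutral amino acids such as glycine, alanine and proline, driven by protons and known from myelinating Schwann cells under the name tramdorin, and also from brown fat cells. It read 8.28, 8.13, 8.70 and 8.42 in P21_KO, 7.66 and 8.47 in P21_WT, and 5.42 and 4.29 in P4_WT. Again the ages did not overlap, in the opposite direction. The difference from P4_WT was 9.23-fold in P21_WT (log2 3.21 ± 0.40 SE) and 11.5-fold in P21_KO (3.53 ± 0.34 SE).

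Markers of both cell types named for Slc36a2 stand beside it. Pou3f1, a Schwann cell factor that Slc36a2 is known to depend on in nerve, read 7.92 to 8.05 in P21_KO, 7.82 and 7.60 in P21_WT and 6.20 and 5.96 in P4_WT. Drp2, which encodes a protein of the myelin sheath's outer surface, read 9.47 to 9.72 in P21_KO, 9.03 and 9.17 in P21_WT and 6.36 and 5.98 in P4_WT. Both thus moved with Slc36a2, and the 2 listed markers that were not called by age, S100b and Ngfr, were higher by 0.31 and 0.16. Ngfr encodes p75, against which the sort selected. Of the 10 fat cell markers, limma called 0 by age and 0 in P21_KO against P4_WT (1 and 2 at an unadjusted p under 0.05), and their mean was 3.22 to 3.52 in P21_KO, 3.26 and 3.33 in P21_WT and 3.31 and 3.74 in P4_WT. Of the 10, 4 were higher and 6 lower in value in P21_WT than in P4_WT. Ucp1, the defining protein of brown fat, read 2.35 to 2.75 in P21_KO, 2.53 and 2.59 in P21_WT and 2.43 on each P4_WT array, all below the median of all genes. Adipoq read 2.59 to 2.96 in P21_KO, 2.62 and 2.45 in P21_WT and 2.38 and 2.30 in P4_WT. Plin1 read 3.98 to 4.48, 3.97 and 3.96, and 3.94 and 3.66 in the same order. Both were higher at P21 without overlap, as Slc36a2 was. Fabp4 read 4.94 to 7.66, 6.74 and 7.29, and 6.60 and 9.94. The part of Schwann cell transcripts in the Slc36a2 value was not tested.

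**Figure D2:**
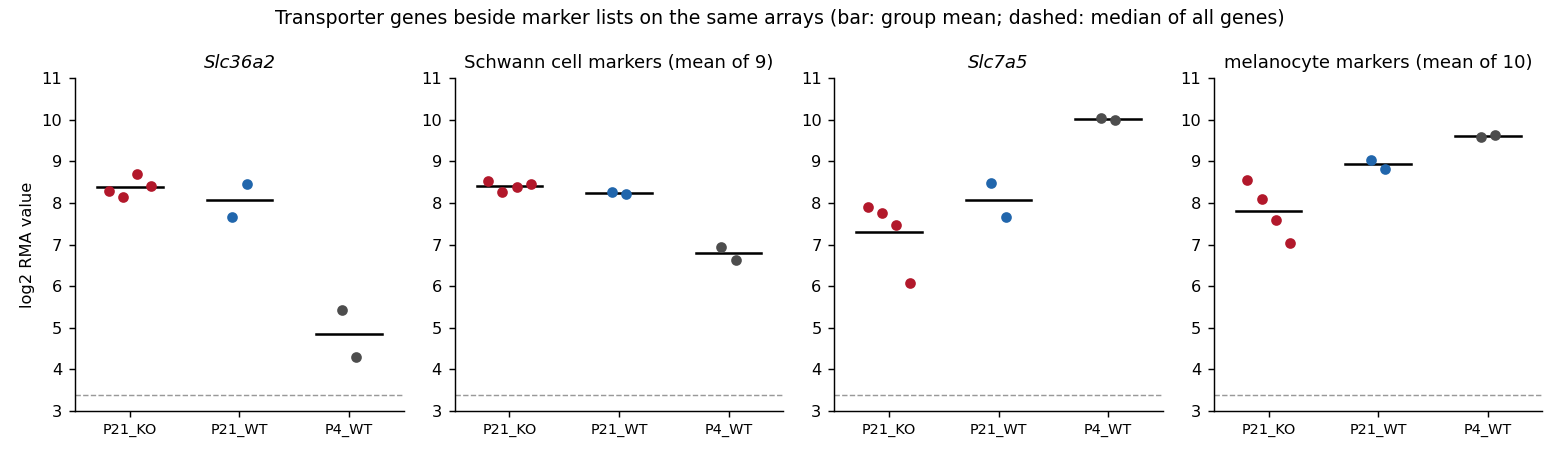
Log2 value on each array (points) and group mean (bars) for Slc36a2, the mean of 9 Schwann cell markers, Slc7a5 and the mean of 10 melanocyte markers, with the groups along the horizontal axis. The Schwann cell mean is 8.21 or higher on all P21 arrays and 6.95 or lower on the P4_WT arrays, and P21_KO replicate 4 has the lowest value of both Slc7a5 (6.08) and the melanocyte mean (7.05).

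Limma called 2 members in P21_WT against P4_WT, Slc36a2 higher and Slc7a8 lower, where 1.61% of all genes were called, 0.757% higher and 0.852% lower. Since the contrast chose the topic, nothing is read from that count. The count was 1 without P4_WT replicate 1, 1 without P21_WT replicate 1, 0 without P21_WT replicate 2 and 4 without P21_KO replicate 4. The groups did not overlap for 24 of the 64 members, against 43.5% of all genes.

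In P21_KO against P4_WT, which differ in age and genotype together and share the P4_WT arrays with the age comparison, limma called 12 members, 4 higher and 8 lower. Slc7a8 and Slc36a2, on which the topic was chosen, are among them, and nothing is read from this count either. The background was 7.73% of all genes in either direction, 3.05% higher and 4.68% lower, and the groups did not overlap for 22 members, against 29.6% of all genes. Higher were Slc36a2, Slc1a5, Slc7a2 and Slc6a8. Lower were Slc7a8, Slc7a5, Slc7a11, Slc38a1, Slc38a4, Slc36a4, Slc1a4 and Slc6a17. The count was 7 without P4_WT replicate 1 and 7 without P4_WT replicate 2, with Slc7a8, Slc36a2, Slc38a1, Slc7a11 and Slc6a17 called in both of these fits. It was 8 when the 3 P21_KO arrays that share a label number were averaged to 1, an alternative chosen after the data were seen. The median difference over all 64 members was 0.03, against 0.02 over all genes, and in the age comparison -0.02 against 0.00. Of the 27 members with a mean above the median of all gene values, 18 were lower in value in P21_KO than in P4_WT, with a median difference of -0.49. In the age comparison 19 of the 27 were lower, with a median difference of -0.43. Over all genes with dim ones left out, the median differences were -0.08 and -0.06 in that order. Nothing is read from these values either.

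**Figure D3:**
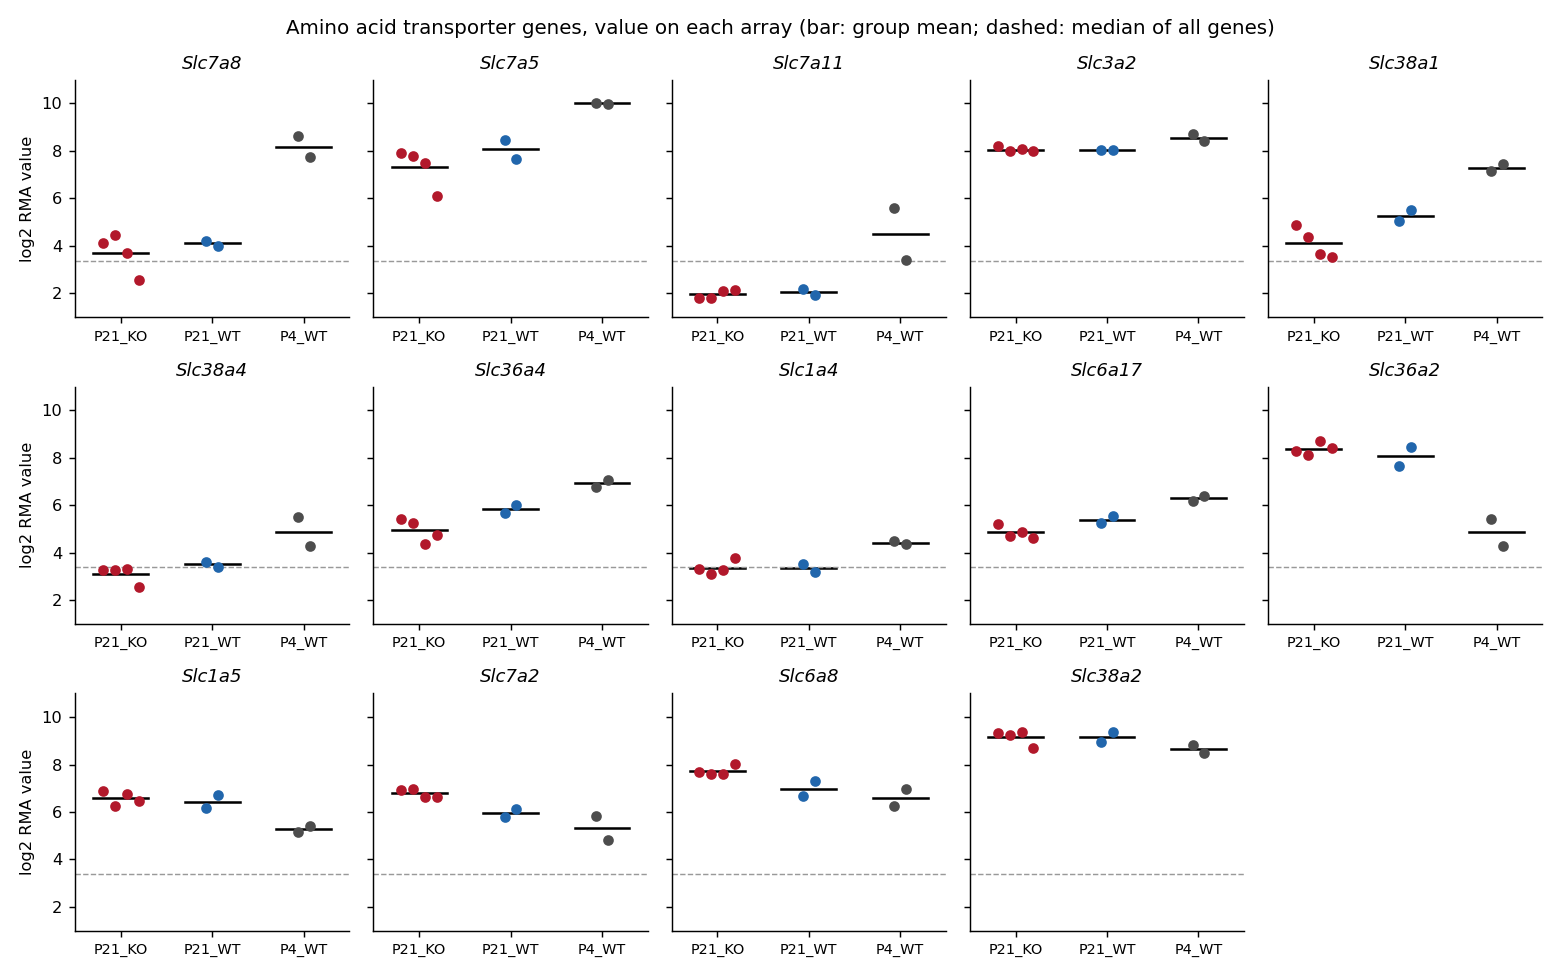
Log2 value on each array (points) and group mean (bars) for 14 members, with P21_KO, P21_WT and P4_WT along the horizontal axis and the median of all genes dashed. Slc7a8, Slc7a5, Slc7a11, Slc38a1, Slc38a4, Slc36a4, Slc1a4 and Slc6a17 are highest in P4_WT, Slc36a2 and Slc1a5 are lowest there, and Slc3a2 and Slc38a2 differ by about 0.50 between the ages.

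Among the light chains, Slc7a5 encodes LAT1, which takes up large neutral amino acids, tyrosine and leucine among them, in growing cells. It read 7.90, 7.77, 7.47 and 6.08 in P21_KO, 8.48 and 7.67 in P21_WT, and 10.04 and 9.99 in P4_WT. The P4 arrays were closely alike and above all others. The difference from P4_WT was -1.94 ± 0.56 (SE) in P21_WT and -2.71 ± 0.48 (SE) in P21_KO, the wider by 6.55-fold. P21_KO replicate 4 was the lowest array of Slc7a5 and of Slc7a8, and had the lowest mean of the melanocyte markers.

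Slc7a11 encodes xCT, the exchanger of cystine for glutamate whose loss lightens pheomelanin in the subtle gray mouse. It read 1.80, 1.82, 2.11 and 2.13 in P21_KO, 2.19 and 1.91 in P21_WT, and 5.58 and 3.39 in P4_WT. All 6 P21 arrays were near the floor, and the P4_WT arrays differed from each other by more than 2 units. Its differences of -2.43 ± 0.57 (SE) in P21_WT and -2.51 ± 0.49 (SE) in P21_KO are therefore poorly sized: leaving out P4_WT replicate 1 gave -1.33 and -1.42. The other Slc7a11 probe set read 4.32 and 3.26 in P4_WT and 1.78 to 2.27 on the P21 arrays. P4_WT replicate 1, the higher array, also had the higher mean of hair shaft markers, whose part in the Slc7a11 value was not tested.

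The heavy chain these 3 light chains need did not show a drop of that size. Slc3a2, which encodes 4F2hc, read 8.19, 7.98, 8.09 and 7.98 in P21_KO, 8.04 on each P21_WT array, and 8.69 and 8.41 in P4_WT. The P21 arrays were below the P4 arrays without overlap, by 0.51 ± 0.17 (SE) in P21_WT and 0.49 ± 0.15 (SE) in P21_KO. Limma called neither difference. Of the 9 light chains Slc7a5 to Slc7a13, 7 had lower and 2 higher values in P21_WT than in P4_WT, with a median of -0.10. Over all genes, 11037 of 22180 were lower. Among the 7, Slc7a6, Slc7a10 and Slc7a12 differed by only -0.05, -0.10 and -0.07. Slc7a7, which exports cationic amino acids, read 3.52 to 4.45 in P21_KO, 3.46 and 4.12 in P21_WT and 4.75 and 4.85 in P4_WT, and Slc7a6, its close relative, 4.75 to 5.38 in P21_KO, 4.97 and 5.38 in P21_WT and 5.39 and 5.06 in P4_WT. Only Slc7a7 was lower on every P21 array than on both P4 arrays. Slc7a10, known from fat cells and glia, stayed between 3.10 and 3.51 on all 8 arrays.

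Of the arginine and lysine carriers grouped here, Slc7a1 to Slc7a4 and Slc7a14, limma called Slc7a2 in P21_KO against P4_WT and no other in any comparison. Slc7a1, the widely expressed member, read 5.59 to 6.37 in P21_KO, 6.94 and 5.60 in P21_WT and 7.03 and 6.66 in P4_WT. Slc7a2, the inducible one, read 6.91, 6.97, 6.64 and 6.62 in P21_KO, 5.79 and 6.13 in P21_WT, and 5.81 and 4.82 in P4_WT. All P21_KO arrays of Slc7a2 lay above the other 4, with a difference of 1.47 ± 0.27 (SE) from P4_WT, while P21_WT overlapped P4_WT. Slc7a3, Slc7a4 and Slc7a14 were among the members below the median in each group.

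The sodium-coupled carriers of the Slc38 family take up glutamine and other small neutral amino acids. Slc38a1 read 4.88, 4.39, 3.66 and 3.53 in P21_KO, 5.06 and 5.49 in P21_WT, and 7.15 and 7.43 in P4_WT. The 3 groups did not overlap and stood in that order. Its difference from P4_WT was -2.02 ± 0.43 (SE) in P21_WT and -3.18 ± 0.37 (SE), a 9.06-fold lower value, in P21_KO.

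Slc38a2, whose product rises in many cells when amino acids are short, read 9.33, 9.26, 9.39 and 8.69 in P21_KO, 8.94 and 9.38 in P21_WT, and 8.84 and 8.48 in P4_WT. It differed by 0.50 ± 0.28 (SE) in P21_WT and 0.51 ± 0.24 (SE) in P21_KO from P4_WT, neither called by limma. Slc38a4, an imprinted gene in the mouse, read 3.26, 3.26, 3.30 and 2.53 in P21_KO, 3.62 and 3.41 in P21_WT, and 5.51 and 4.26 in P4_WT. It was lower at P21 without overlap, by 1.37 ± 0.41 (SE) in P21_WT and 1.80 ± 0.35 (SE) in P21_KO, from values that differed widely between the P4 arrays. Of the other members with a mean above the median, Slc38a6 read 3.93 to 4.60 in P21_KO, 4.38 and 4.10 in P21_WT and 5.40 and 4.35 in P4_WT, and Slc38a10 read 5.05 to 5.55 in P21_KO, 5.04 and 5.43 in P21_WT and 5.92 and 5.47 in P4_WT. Limma called neither. Slc38a7 read 4.55 to 4.85 in P21_KO, 5.34 and 4.54 in P21_WT and 4.90 and 5.30 in P4_WT. Slc38a9, the lysosomal arginine sensor of the mTORC1 pathway, read 5.19 to 5.91 in P21_KO, 5.46 and 5.59 in P21_WT and 5.17 and 5.48 in P4_WT.

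Some members are neighbours. Among the coding genes of GRCm38.p6, Slc38a1, Slc38a2 and Slc38a4 follow each other on chromosome 15, and the difference from P4_WT was positive for the middle gene, which limma did not call, and negative for its neighbours. On chromosome 11, Slc36a2 lies between Slc36a3 and Slc36a1. Slc36a1, which moves amino acids out of lysosomes, read 5.91, 5.81, 5.68 and 5.12 in P21_KO, 5.27 and 5.71 in P21_WT and 5.44 and 5.56 in P4_WT, so the groups overlapped. Slc36a3 read 2.00 to 2.41 in P21_KO, 2.47 and 2.25 in P21_WT and 2.74 and 2.41 in P4_WT, below the median throughout. Of that cluster, Slc36a2 was the gene with separated ages.

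**Figure D4:**
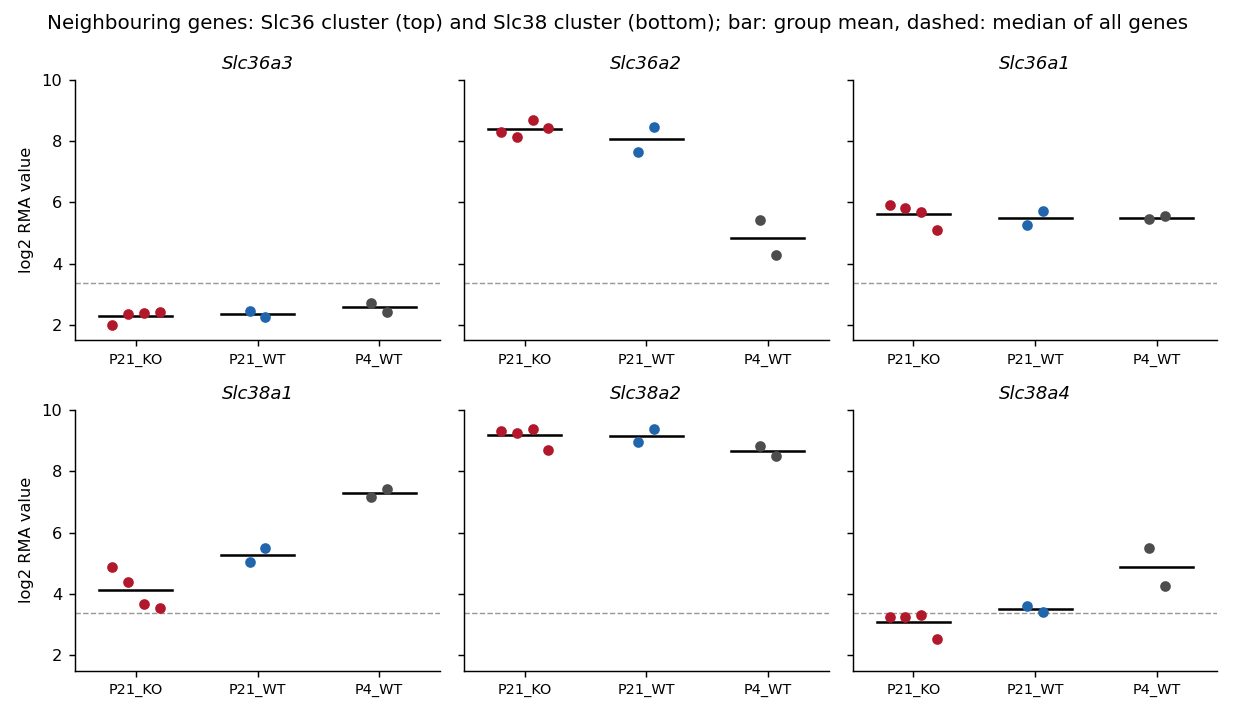
Log2 value on each array (points) and group mean (bars) for the Slc36 neighbours on chromosome 11 in the upper row and the Slc38 neighbours on chromosome 15 in the lower row, with the median of all genes dashed. Slc36a2 is higher at P21 while Slc36a1 overlaps between the groups, and Slc38a1 and Slc38a4 are lower at P21 while Slc38a2 is not.

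Slc36a4, on another chromosome, encodes a carrier with high affinity for proline and tryptophan. It read 5.40, 5.25, 4.35 and 4.75 in P21_KO, 5.65 and 6.00 in P21_WT, and 6.77 and 7.06 in P4_WT. The 3 groups did not overlap, with P21_KO lowest, at -1.98 ± 0.29 (SE) from P4_WT, while P21_WT was at -1.09 ± 0.34 (SE). Its other probe set gave smaller differences from P4_WT, -0.63 in P21_KO and -0.53 in P21_WT. On that probe set P21_KO overlapped P4_WT, with P21_KO replicate 1 (5.04) above P4_WT replicate 2 (4.87).

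The neutral carriers of the Slc1 family differed in opposite directions. Slc1a5, the ASCT2 carrier of glutamine, read 6.87, 6.24, 6.74 and 6.47 in P21_KO, 6.15 and 6.70 in P21_WT, and 5.16 and 5.41 in P4_WT. Slc1a4, the ASCT1 carrier of alanine, serine and cysteine, read 3.30, 3.08, 3.27 and 3.77 in P21_KO, 3.51 and 3.17 in P21_WT, and 4.47 and 4.38 in P4_WT. Both separated the ages without overlap, Slc1a5 upward by 1.14 ± 0.27 (SE) in P21_WT and 1.29 ± 0.23 (SE) in P21_KO, and Slc1a4 downward by 1.09 ± 0.24 (SE) and 1.07 ± 0.21 (SE) in the same comparisons. A second probe set of Slc1a5 disagreed on genotype, at -1.23 for P21_KO minus P21_WT against 0.15 for the one kept, and read 7.99 on P21_WT replicate 2.

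In the Slc6 family, Slc6a8, the creatine carrier, read 7.70, 7.58, 7.62 and 8.03 in P21_KO, 6.66 and 7.30 in P21_WT, and 6.24 and 6.97 in P4_WT. Its P21_KO arrays lay above all others, at 1.13 ± 0.26 (SE) from P4_WT. Slc6a17, which loads neutral amino acids into vesicles of neurons, read 5.22, 4.72, 4.89 and 4.63 in P21_KO, 5.26 and 5.53 in P21_WT, and 6.18 and 6.40 in P4_WT. The 3 groups of Slc6a17 did not overlap, at -1.42 ± 0.20 (SE) in P21_KO and -0.89 ± 0.23 (SE) in P21_WT from P4_WT. Of 8 neuron markers limma called 0 in either comparison, and 1 had an unadjusted p under 0.05, in P21_KO against P4_WT. Slc6a6, the taurine carrier, read 7.02, 7.64, 6.80 and 5.29 in P21_KO, 7.11 and 7.06 in P21_WT and 7.38 and 7.08 in P4_WT, with the low reading on P21_KO replicate 4. In the Slc43 family, Slc43a1, Slc43a2 and Slc43a3 overlapped between P21_WT and P4_WT. Between P21_KO and P4_WT, Slc43a1 and Slc43a3 overlapped, while Slc43a2 read 4.50 to 5.75 in P21_KO, above 4.22 and 4.12 in P4_WT, and was not called.

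The comparison of P21_KO with P21_WT sets cells of mice floxed at both genes against cells of mice that are +/+ for both. Of these genes, B-raf encodes a kinase that passes growth factor signals on to ERK. Loss of the genes in the sorted cells was not shown here, since the Braf ranges overlap. This comparison shares the P21_WT arrays with the age comparison. Limma called 0 of the 64 members, where 0% of all genes were called, and 0 with array weights or after cyclic loess normalization. At an unadjusted p under 0.05 there were 5 members (Slc38a1, Slc7a2, Slc36a4, Slc6a8 and Slc6a17), where 6.52% of all genes had such a p. The groups did not overlap for 14 members, against 15.4% of all genes. The median difference was 0.01, as over all genes.

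Of the 5, Slc38a1 was lower in P21_KO by 1.16 ± 0.37 (SE), with a limma adjusted p of 0.628. Slc36a4 was lower by 0.89 ± 0.29 (SE; limma adjusted p = 0.648), though its other probe set differed by -0.10, with P21_KO replicate 1 (5.04) above both P21_WT arrays (4.39 and 4.68). Slc6a17 was lower by 0.53 ± 0.20 (SE; limma adjusted p = 0.712). Each of these genes was also lower in P21_WT than in P4_WT. Slc7a2 was higher in P21_KO by 0.82 ± 0.27 (SE; limma adjusted p = 0.648) and Slc6a8 by 0.75 ± 0.26 (SE; limma adjusted p = 0.678). On the probe sets used, the 4 P21_KO arrays of all 5 lay on the same side of both P21_WT arrays, and none passed over all genes. The other members with the smallest p in each direction were Slc6a21 (-0.40, limma adjusted p = 0.784), Slc3a1 (0.35, 0.88) and Slc6a4 (0.24, 0.883), all below the median of all genes.

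The melanocyte marker mean did not overlap between P21_KO and P21_WT either, and 9 of the 10 markers had lower values in P21_KO. The median difference over all 10 was -1.01, and limma called 0 of them (8 at an unadjusted p under 0.05). The part of the melanocyte marker difference in the values of Slc38a1, Slc36a4 and Slc6a17 was not tested. The genotype differences of Slc7a8 and Slc36a2 were not called either. Slc7a8 differed by -0.40 ± 0.49 (SE; limma adjusted p = 0.957), with P21_KO and P21_WT overlapping, with a range of -0.64 (without P21_KO replicate 2) to -0.02 (without P21_KO replicate 4). Slc36a2 differed by 0.32 ± 0.34 (SE; limma adjusted p = 0.946), by -0.08 without P21_WT replicate 1 and by 0.73 without P21_WT replicate 2.

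**Figure D5:**
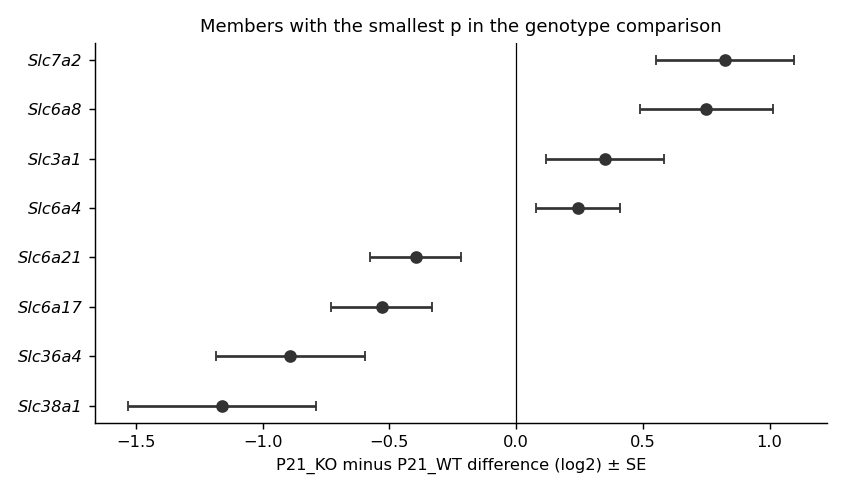
P21_KO minus P21_WT difference in log2 value (horizontal, with standard error) for the 4 members per direction with the smallest p. The values run from 0.82 for Slc7a2 to -1.16 for Slc38a1, and none passed limma's adjusted p of 0.05.

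Genes that sense or answer amino acid supply were read from 4 lists. Among 24 measured genes of the amino acid response, which ATF4 drives when amino acids are short, limma called 0 in P21_WT against P4_WT (4 at an unadjusted p under 0.05), and 3 higher and 1 lower in P21_KO against P4_WT. Ddit3, a transcription factor of the stress response, was higher by 2.00 ± 0.38 (SE), Ppp1r15a, which restores translation after stress, by 2.38 ± 0.37 (SE), and Phgdh, the entry enzyme of serine synthesis, by 1.06 ± 0.24 (SE). Vldlr, a lipoprotein receptor, was lower by 0.98 ± 0.21 (SE). Ddit3 read 5.28 and 6.74 and Ppp1r15a 5.28 and 6.83 in P4_WT, so these pups differed by more than 1 unit. Of the 24, 13 were higher and 11 lower in value in P21_KO than in P4_WT, with a median of 0.09. The list's median in the age comparison was 0.07. Among the lower ones that limma did not call, Asns read 3.30 to 4.32 in P21_KO and 4.69 and 4.54 in P4_WT. Psat1 read 5.44 to 6.06 and 6.30 and 6.84, and Shmt2 4.44 to 5.71 and 6.27 and 5.88, in the same order. Asns, Psat1 and Shmt2 were each lower in P21_KO without overlap.

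Among 29 genes through which amino acids reach the growth kinase mTORC1, limma called 1 lower in P21_WT against P4_WT, and 1 higher and 3 lower in P21_KO against P4_WT. Lamtor4, a subunit of the lysosomal scaffold for mTORC1, read 5.64 to 6.27 in P21_KO, 5.69 and 5.74 in P21_WT and 7.03 and 6.84 in P4_WT, lower in both comparisons (-1.08 in P21_KO, -1.22 in P21_WT). Lamtor2, of the same scaffold, was lower by 0.93 ± 0.20 (SE) in P21_KO. Of the sestrins, inhibitors of the pathway, Sesn1 read 6.37 to 7.56 in P21_KO, 6.15 and 6.44 in P21_WT and 4.90 and 4.51 in P4_WT, and Sesn3 5.73 to 6.16 in P21_KO, 6.56 and 6.54 in P21_WT and 6.95 and 7.16 in P4_WT. Sesn1 was thus higher and Sesn3 lower at P21 without overlap, and both were called in P21_KO against P4_WT. Sesn2, kept on the list of the amino acid response, read 3.19 to 3.74 in P21_KO, 3.26 and 3.09 in P21_WT and 2.76 and 3.12 in P4_WT, and was not called.

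Of 14 measured cysteine and glutathione genes, limma called 2 lower in P21_KO against P4_WT and 0 in P21_WT against P4_WT (1 at an unadjusted p under 0.05). These were the peroxide-removing enzyme gene Gpx1 (2.01-fold lower) and the haem-degrading enzyme gene Hmox1 (-1.52 ± 0.28 SE). Of 23 amino acid carriers outside the 7 families, limma called 1 higher and 1 lower in P21_KO against P4_WT and 0 in P21_WT against P4_WT (4 at an unadjusted p under 0.05). Sfxn1, the serine carrier of mitochondria, was lower by 2.09 ± 0.47 (SE), and its relative Sfxn3 was higher by 1.13 ± 0.25 (SE). In the genotype comparison limma called 0 genes of the 4 lists, the medians lay between -0.14 and 0.05, and 2 genes had an unadjusted p under 0.05 in each list but that of cysteine and glutathione, which had 3. Against 7.73% of all genes called, the shares called in P21_KO against P4_WT were 16.7%, 13.8%, 14.3% and 8.70% in the order given here. Of their measured genes 18 of 24, 26 of 29, 11 of 14 and 16 of 23 had a mean above the median of all genes, and 16.5% of genes were called when dim genes were left out of the fit, so nothing is read from these shares. Over the 4 lists together, the 1 call in P21_WT against P4_WT became 0 without P4_WT replicate 1, without either P21_WT array and without P21_KO replicate 1 or 4, and 3 without P4_WT replicate 2. The 12 calls in P21_KO against P4_WT became 6 without P4_WT replicate 2.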

How the data were processed

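The authors deposited log2 values. The submitters' processing notes name RMA and Affymetrix Expression Console, without versions. Complementary DNA was amplified before labelling, per the labels' protocols, and the spread this step adds is part of the spread between arrays. RMA compresses differences near the floor, and values ran from 0.913 to 12.2. Of 41345 rows, 23521 have 1 gene symbol, 1814 several (among them the row shared by Slc6a9 and Ccdc24, left out) and 16010 none. The gene table for names and neighbours is on GRCm38.p6, matched 23328 rows and changed 0 symbols. Where several probe sets name a gene, the highest mean was kept, leaving 22180 genes.

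Limma 3.58.1 (lmFit and eBayes, R 4.3.3) fitted the group means over the 8 arrays for each gene, with 5 residual degrees of freedom, so the comparisons share the spread. P-values are two-sided, adjusted by Benjamini-Hochberg over all genes, and called under 0.05. Precision is limited by the few arrays. The fit was tested on simulated data. Members and lists were chosen with earlier results of these data known. Members were named in full where they are Slc7a8, Slc36a2, Slc3a2, Slc7a5, Slc7a11, Slc1a4, Slc1a5 or Slc38a2, among the 6 highest means, called without overlap against P4_WT, or among the 4 smallest genotype p per direction. Of the lists, called members are named. Others, such as Slc7a1, Slc7a6, Slc7a7, Slc7a10, Slc36a1, Slc36a3, Slc38a6, Slc38a7, Slc38a9, Slc38a10, Slc43a2, Sesn2, Asns, Psat1, Shmt2, Sox10, Pax3, Pou3f1, Drp2, Ucp1, Adipoq, Plin1 and Fabp4, were added after their values were seen. The alternatives changed which arrays were fitted, the prior, array weights, normalization, dim genes, probe sets, replicate and label numbers, threshold, and each array in turn left out. Same-numbered wild-type arrays did not deviate together (r = -0.01). The other floxed gene is not reported here.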

Additional observations from a re-analysis of the deposited data

Results flagged for a closer look

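On the 4 P21_KO arrays, 6 of 64 members had a single array far from the other 3 relative to the group's range, where chance flags about 5% of such groups. Slc38a4 read 2.53 on P21_KO replicate 4 and 3.26 to 3.30 on the others. Slc43a2, the LAT4 carrier, read 5.75 on replicate 2 and 4.50 to 4.67 elsewhere, and Slc7a7 read 4.45 on replicate 1 and 3.52 to 3.67 elsewhere. The remaining 3 were near the floor. Slc36a3 read 2.00 on replicate 1 against 2.36 to 2.41, Slc6a13 read 3.20 on replicate 1 against 2.51 to 2.58, and Slc6a2 read 3.20 on replicate 4 against 2.79 to 2.85.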

How the results depend on the processing

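The count of members called in P21_KO minus P21_WT was 0 under every alternative run, while over all genes 0 to 15 were called there. In P21_WT minus P4_WT the count of 2 became 1 with only the arrays of those groups, 6 with the threshold at 0.10 and 4 with cyclic loess. Leaving out 1 array gave 0 to 4. In P21_KO minus P4_WT leaving out 1 array gave 7 to 12, against 12, and the other alternatives without a block gave 8 to 14. With replicate number as a block, the count was 1 in P21_WT minus P4_WT and 6 in P21_KO minus P4_WT. That block also turned the genotype difference of Slc7a8 to 0.19, though the samples share only a number. Over the fits that left out 1 array, the genotype difference of Slc36a2 ran from -0.084 to 0.73. Genes of the 4 lists called in P21_WT minus P4_WT numbered 0 to 3, against 1, and in P21_KO minus P4_WT 6 to 12, against 12. Over the whole table, the genes called in P21_WT minus P4_WT numbered 49 with only those arrays, 45 with the replicate block, 121 without P21_WT replicate 1, 119 without P21_WT replicate 2 and 233 without P21_KO replicate 3, against 357. In P21_KO minus P4_WT they numbered 463 with the replicate block, 990 without P4_WT replicate 1, 921 without P4_WT replicate 2, 1174 to 1529 without a P21_KO array and 977 with the arrays that share a label number averaged, against 1715. The cause of these lower counts was not tested. Most of these fits had fewer arrays, while the replicate block kept all 8 arrays and fitted more terms. Of 46 results for named members, 37 kept their sign under all alternatives run.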
